A study of Rattus norvegicus with 24 samples.

Results

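The respiratory chain genes of rat dorsal root ganglion (DRG) neurons were followed through a partial nerve injury. Members were the genes whose symbol starts with Nduf, Uqcr, Cox4 to Cox8, Atp5 or Mt- and whose mean level was at least 5 CPM (UMI counts scaled to the neuron's total) over the neurons that passed quality control. A UMI (unique molecular identifier) is a tag that marks 1 captured RNA molecule. Of 32881 genes shared by the 24 libraries, 107 carried such a name and 95 reached the level, 82 of them encoded in the nucleus and 13 in mitochondrial DNA (the Mt- genes). The nuclear members comprised 45 genes of complex I, 9 of complex III, 12 of complex IV and 16 of complex V.

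The respiratory chain sits in the inner mitochondrial membrane. Complex I takes electrons from NADH, complex III passes them to cytochrome c, complex IV hands them to oxygen, and complex V, the ATP synthase, uses the resulting proton gradient to make ATP. The mitochondrial genome encodes core subunits of each of these complexes, whereas most subunits are made from nuclear genes and imported, so that each complex is assembled from products of both genomes. Sensory neurons, with their long axons, depend on this supply of ATP for ion pumping and transport.

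All rats were male Sprague-Dawley animals without genetic modification, and their age was not given. In the Sham group (4 DRG samples) the sciatic nerve was exposed and left uncrushed, whereas in spared nerve crush (SNC) the tibial and common peroneal branches were crushed and the sural branch was spared. SNC neurons were taken at 1 d (4 samples), 3 d (3 samples) and 7 d (5 samples). In these labelled groups, Sham included, the sciatic nerve had been exposed in an earlier operation, by the paper's methods, and dyes injected into its branches. Dye-bearing neurons were hand-picked from dissociated L4 and L5 ganglia. Each sample mixed neurons of crushed and of spared branches, and the files did not record which neuron was which, so that every injury value below is over that mixture. A further 7 libraries, termed added sham here, held neurons of sham rats at 0 d (3 libraries), 1 d (2), 3 d (1) and 7 d (1), collected for subtype annotation. Labelled Sham and SNC shared anaesthesia, nerve exposure, labelling and dissociation, so that the effects of these steps cannot be read from their contrast. They differed by the crush and, in part, by the season of reverse transcription. At 1 d and 3 d, crush and season cannot be fully told apart, since Sham 18 alone shared the season of these SNC samples. The labels did not say that each sample came from separate animals, so that p-values measure the spread between these samples, which may be technical.

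Quality control kept 1433 of 1464 neurons, 930 labelled and 503 added, at limits of 500 genes, 1000 UMIs and an Mt- share under 5%. The last limit bears on the Mt- genes themselves, and it removed 6 labelled neurons (1 Sham, 2 SNC 1 d, 3 SNC 3 d and 0 SNC 7 d) and 22 added neurons (3, 8, 10 and 1 at 0, 1, 3 and 7 d). Samples held 4002503 to 28975829 UMIs in the labelled groups and 14004136 to 40732975 in the added libraries, with medians of 170621 to 437461 and 236125 to 492066 UMIs per neuron. Neuronal markers were detected throughout and satellite glial and Schwann cell markers took 0.077% to 0.232% of labelled and 0.081% to 0.135% of added UMIs, with the highest value in the Sham sample Xin. In a labelled cluster of 42 neurons and an added cluster of 136, 85.7% of these glial markers were high against the other neurons. Reverse transcription was done in an earlier season (Sham Xin, 4 and 10, and SNC 7 d S, 8 and 9) or a later season (all others of the labelled groups), so that SNC 1 d and 3 d shared their season with Sham 18 only. No pair of replicate samples agreed within sampling noise, and 0 neurons were identical to another.

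Upstream sequence was inspected for the nuclear members, since nuclear respiratory chain genes are known targets of NRF1 and of the ETS-family factor GABPA. The 250 bases before the start of each gene were taken from RefSeq promoters on build GRCr8, and 68 of the 79 nuclear member symbols matched a promoter. The NRF1 core (GCGCA, any base, then GCGC) was found on either strand in 12 of 68 (17.6%) against 3.75% of all 33469 promoters. The ETS core CCGGAAG was found in 17 (25%) against 7.27%, and 28 (41.2%) held at least 1 of the 2 cores against 10.4%. Complex III genes had the ETS core in 3 of 6, whereas 0 of 9 complex IV genes had the NRF1 core. Matches are letter patterns and were not tested as binding sites. Members were counted once per symbol, whereas the 33469 promoters were neither reduced to 1 per symbol nor matched to the members in level. For each complex, the most abundant member with a match is shown, with the matched cores in capitals (CTTCCGG is the ETS core on the other strand). They are Ndufv3 (chr20:9613536-9613785, plus strand), Uqcrq (chr10:38089979-38090228, minus strand), Cox8a (chr1:213833624-213833873, minus strand) and Atp5me (chr14:1464610-1464859, plus strand), and the first 3 recur in the comparisons.
Ndufv3: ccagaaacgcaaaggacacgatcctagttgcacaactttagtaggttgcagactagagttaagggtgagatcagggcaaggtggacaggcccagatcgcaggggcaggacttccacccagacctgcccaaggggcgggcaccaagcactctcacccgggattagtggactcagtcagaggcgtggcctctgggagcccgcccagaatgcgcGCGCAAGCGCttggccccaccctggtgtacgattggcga
Uqcrq: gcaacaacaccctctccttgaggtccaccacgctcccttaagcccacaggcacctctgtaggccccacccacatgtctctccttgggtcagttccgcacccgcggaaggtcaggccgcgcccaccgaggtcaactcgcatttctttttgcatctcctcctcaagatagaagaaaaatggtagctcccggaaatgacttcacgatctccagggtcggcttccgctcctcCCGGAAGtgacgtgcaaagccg
Cox8a: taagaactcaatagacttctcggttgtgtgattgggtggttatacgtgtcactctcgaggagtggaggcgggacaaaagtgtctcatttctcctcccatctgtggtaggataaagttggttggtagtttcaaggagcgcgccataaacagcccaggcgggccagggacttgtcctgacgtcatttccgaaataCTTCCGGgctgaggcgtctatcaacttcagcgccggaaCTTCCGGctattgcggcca
Atp5me: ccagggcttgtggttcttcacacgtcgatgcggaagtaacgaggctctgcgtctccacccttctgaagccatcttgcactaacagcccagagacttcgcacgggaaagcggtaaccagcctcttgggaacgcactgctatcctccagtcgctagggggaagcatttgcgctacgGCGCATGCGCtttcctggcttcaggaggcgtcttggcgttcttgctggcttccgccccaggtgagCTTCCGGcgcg
The NRF1 core of Ndufv3 began at position -39 relative to the start, the ETS core of Uqcrq at -22, and the ETS cores of Cox8a at -57 and -19. Atp5me, a subunit of the membrane part of the ATP synthase, was the 1 member with both cores, which began at -76 and -11 and did not overlap.

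Mitochondrially encoded transcripts were the most abundant members. Because each UMI stands for 1 captured 3′ end, CPM was compared between genes without division by length. Mt-atp6, a proton channel subunit of complex V, averaged 2492 CPM over the 1433 neurons. Mt-co2 and Mt-co1, catalytic core subunits of complex IV, averaged 2334 and 2258 CPM, and Mt-cyb, the cytochrome b of complex III, averaged 1850 CPM. Mt-nd4, a complex I core subunit, lay far below the rest at 15.4 CPM. Mt-nd4 overlaps Mt-nd4l and Mt-atp8 overlaps Mt-atp6 on the mitochondrial genome, and Mt-nd6 lies on the other strand, so that the split of reads within these pairs is uncertain.

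Among nuclear members the highest levels belonged to complexes IV and V. Cox6a1, a regulatory subunit of complex IV, averaged 1339 CPM, Cox4i1, its largest nuclear subunit, 1104 CPM, and Cox7c 1026 CPM. Atp5if1, which inhibits ATP hydrolysis by complex V, averaged 1192 CPM and Atp5f1b, the catalytic beta subunit, 956 CPM. In complex III, Uqcrq (749 CPM), Uqcr10 (669 CPM) and Uqcr11 (626 CPM), all small subunits, led. In the Nduf group Ndufa4 led at 878 CPM, ahead of the accessory subunits Ndufb8 (653 CPM) and Ndufb2 (650 CPM). Ndufa4 is counted with complex I here by its name and is known as a subunit of complex IV. The 3 members nearest above the limit were Ndufa12 (12.2 CPM), Mt-nd4 and Uqcrc2 (15.8 CPM).

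Isoforms known from other tissues stood near 0. Cox4i1 stood at 1104 CPM against 1.12 CPM for Cox4i2, the isoform known from lung. The muscle isoforms Cox7a1, Cox8b and Cox6a2 stood at 0.716, 0.483 and 0.212 CPM, and the testis isoforms Cox6b2 and Cox8c at 0.282 and 0.0600 CPM. Ndufa4l2 stood at 0.140 CPM. Other isoforms were abundant side by side, with Atp5mc1, Atp5mc2 and Atp5mc3, genes of the c-ring, at 624.6, 364.1 and 511.0 CPM. The highest genes outside the limit of 5 CPM were Cox4i2 and Cox7a1, so that none lay close under it, and Cox7b2, Cox6c-ps1 and Ndufa10l1-2 were also outside. Ndufa1, an accessory subunit of complex I, had 7 UMIs in all neurons (0.00707 CPM), and Atp5pb, a stalk subunit of complex V, was listed at 0 UMIs. Both are known as general subunits of their complexes, and whether the annotation used for counting missed their reads was not tested. Genes such as Uqcrb, Cox6b1 and Ndufv3, listed under more than 1 entry (Ndufv3-1, Ndufv3-2), are uncertain because their reads may be split between the entries.

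**Figure D1:**
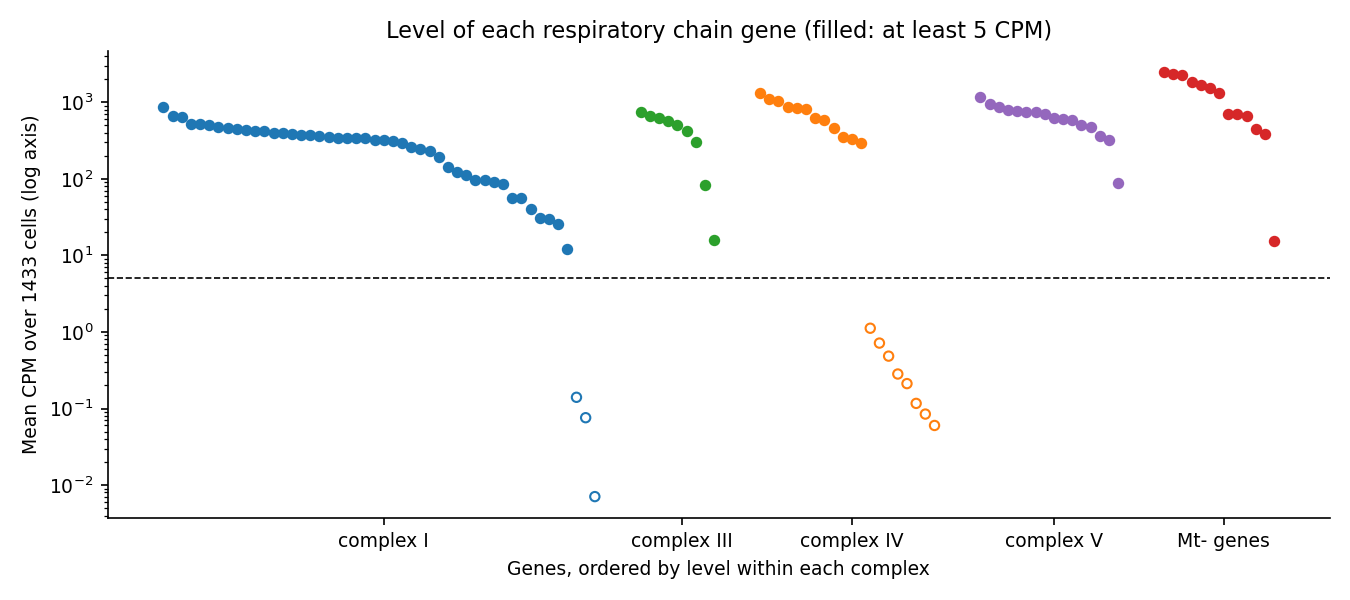
Mean CPM (log axis) over 1433 neurons for each respiratory chain gene with at least 1 UMI, ordered by level within complex I, III, IV, V and the Mt- genes; the dashed line is the 5 CPM limit, filled points are the 95 members and open points lie under the limit. Of the nuclear members, 41 lie at 400 CPM or more and 14 under 100, and Mt-nd4 at 15.4 CPM stands apart from the other Mt- genes.

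The nuclear members together took 3.73% ± 0.0954 (SD, n = 4) of all UMIs in Sham. The samples stood at 3.72% (Xin), 3.82% (4), 3.60% (10) and 3.77% (18). In SNC 1 d they took 3.52% ± 0.229 (SD, n = 4), with 3.49%, 3.85%, 3.37% and 3.36% in samples 13, 16, 17-1 and 17-2. In SNC 3 d the share was 3.74% ± 0.124 (SD, n = 3), ranging from 3.61% to 3.85%. In SNC 7 d it was 3.57% ± 0.261 (SD, n = 5), with 4.02% in sample 19-1 and 3.38% to 3.53% in the other 4. All 3 injury groups overlapped Sham.

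The 13 Mt- members took 1.23% ± 0.157 (SD, n = 4) of UMIs in Sham, with 1.02% in Xin, 1.28% in 4, 1.21% in 10 and 1.40% in 18. The share was 1.40% ± 0.0687 (SD, n = 4; 1.31% to 1.48%) in SNC 1 d, 1.46% ± 0.115 (SD, n = 3; 1.38% to 1.59%) in SNC 3 d and 1.20% ± 0.161 (SD, n = 5; 1.04% to 1.43%) in SNC 7 d. Sham 18, the Sham sample of the later season, lay within the range of the SNC 1 d and 3 d samples, and the 3 Sham samples of the earlier season lay below all of them. In SNC 7 d, the 1 injury group with both seasons, the seasons overlapped, since the later samples 19-1 (1.43%) and 19-2 (1.04%) were the highest and the lowest and the earlier samples S, 8 and 9 stood at 1.13%, 1.29% and 1.09%. Samples 19-1 and 19-2 had opposite dye mixes, and whether the mix moved their shares was not tested. A further 24 mitochondrial RNAs without an Mt- name took 0.582% to 1.32% of UMIs.

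**Figure D2:**
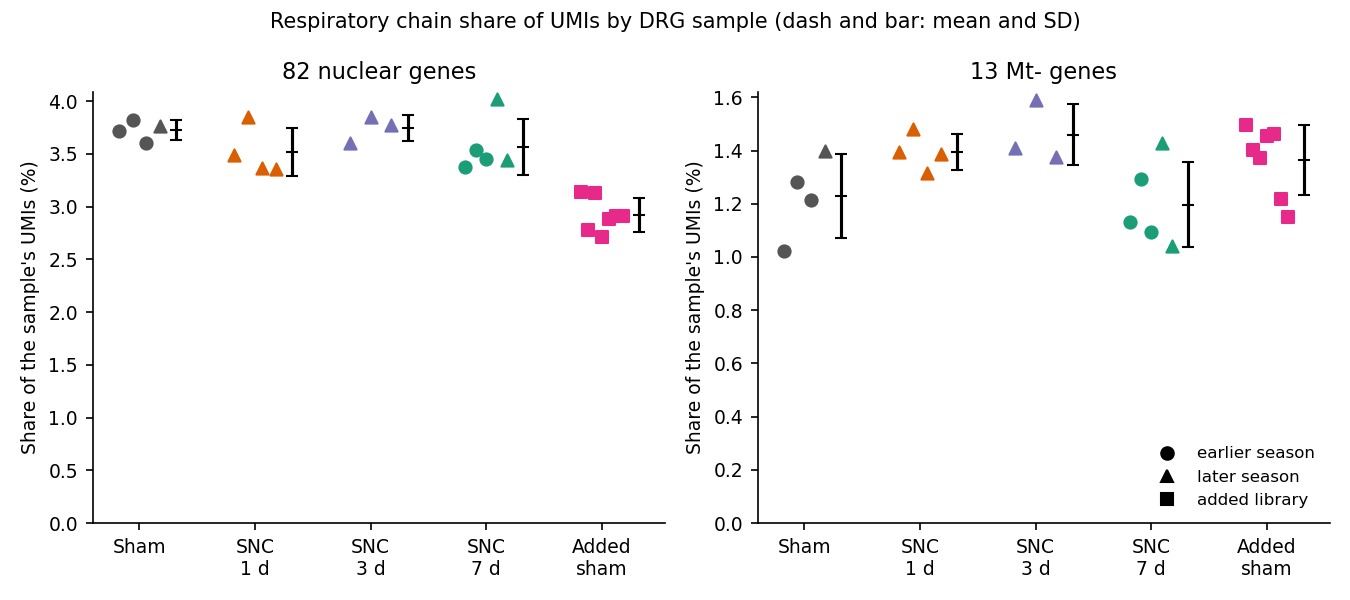
Share of a sample's UMIs (%) in the 82 nuclear genes (left) and the 13 Mt- genes (right), 1 point for each DRG sample or added library by group; marker shapes give the season of reverse transcription, and the dash and bar beside each group are mean and SD. The added sham libraries lie at 2.71% to 3.14% on the left, under all labelled samples (3.36% to 4.02%), and overlap them on the right.

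The question of whether nerve crush changed these genes was addressed with edgeR's quasi-likelihood test on UMI counts summed per sample, over 14239 genes. In such sums, fewer neurons of a type and less RNA per neuron cannot be told apart. No gene passed an adjusted p of 0.05 at any time (percent called 0 in each direction), members included. At an unadjusted p under 0.05, 595 genes were lower and 648 higher at 1 d. DESeq2 called 17, 1 and 0 genes at 1, 3 and 7 d, of which 0 were members. Of 7 injury genes such as Atf3, tested as a list in the same fits, 0 were higher at an unadjusted p under 0.05, and their median log2 fold changes were -0.21, -0.23 and -0.18 at 1, 3 and 7 d. The full list of 8 took 0.278% to 0.659% of UMIs in Sham samples and 0.258% to 0.448% in SNC samples. In the added sham libraries it took 0.0705% to 0.114%. The lowest adjusted p of a member was 0.525 at 1 d, 0.966 at 3 d and 1.00 at 7 d by edgeR.

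At 1 d, 13 nuclear members were lower and 0 higher at an unadjusted p under 0.05, which is 15.9% of 82 against 4.18% lower over all genes. The median log2 fold change of the nuclear members was -0.14 and their median standard error 0.11, beside -0.00587 over all genes. Of the 13, 6 were complex I genes, 1 complex III, 1 complex IV and 5 complex V. Genes as abundant as these also leaned lower. Among the 474 genes at 400 CPM or more, the median was -0.20 and 28.9% were lower at an unadjusted p under 0.05, against -0.16 and 17.1% for the 41 nuclear members at that level. In neurons of 100000 to 400000 UMIs only, a depth window chosen after seeing the data, the median of the nuclear members turned to 0.0361 and the count to 5. The count of 13 rested on single samples. It was 4 without Sham Xin, 4 without SNC 17-1, 3 without SNC 17-2 and 43 without SNC 16, and it was 3 with samples 17-1 and 17-2 merged, 5 with the season as a term, 6 after thinning each neuron to 20000 UMIs and 1 in the later season only.

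Ndufv3-2, an accessory subunit near the NADH site of complex I, stood at 671.8, 580.6, 609.3 and 538.8 CPM in Sham and at 482.6, 541.3, 460.0 and 448.7 CPM in SNC 1 d. The groups overlapped in 1 SNC sample, and the log2 difference was -0.38 ± 0.12 (SE; adjusted p = 0.525 by edgeR). Uqcrq, a small subunit of complex III, stood at 691.8 to 896.4 CPM in Sham and 610.9 to 700.4 CPM in SNC 1 d, a log2 difference of -0.33 ± 0.12 (SE; adjusted p = 0.534), and at 0.0293 in the depth window. Ndufv1, which carries the NADH-binding site, stood at 338.7 to 418.0 CPM in Sham and 318.8 to 343.0 CPM in SNC 1 d. Ndufa10l1-1, listed beside a near-identical entry, differed by -0.33 ± 0.11 on the log2 scale. None of these passed the adjusted threshold.

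At 3 d the nuclear members stood close to Sham. Their median log2 fold change was -0.0235, and 2 of 82 were lower and 0 higher at an unadjusted p under 0.05, against 2.29% lower and 1.88% higher over all genes. These were Ndufv1, at 301.9 to 322.7 CPM in SNC 3 d and so below all 4 Sham samples, and Atp5f1a, the alpha subunit of complex V, at 288.0 to 338.1 CPM against 344.4 to 380.5 CPM in Sham. Their log2 differences were -0.29 ± 0.11 and -0.23 ± 0.0999 (SE; adjusted p = 0.966 for each by edgeR). The count of 2 was 0 without SNC 14, 1 without Sham Xin or 10 or SNC 15, and 6 with the season as a term.

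The Mt- members stood above Sham at 3 d in all 13 cases by the sign of the fitted difference, against 49.4% of all genes, with a median log2 fold change of 0.24. These signs come from the same samples and are not independent, so that they are not 13 separate results. At an unadjusted p under 0.05, 4 of 13 were higher (1.88% of all genes), and none passed the adjusted threshold. Mt-nd5, a proton-pumping subunit of complex I, stood at 419.0, 504.8, 470.0 and 578.0 CPM in Sham and at 638.7, 703.3 and 635.3 CPM in SNC 3 d. Every SNC 3 d sample thus lay above every Sham sample, and the log2 difference was 0.40 ± 0.11 (SE; adjusted p = 0.966 by edgeR). The share of all genes separated in this way was not taken. Mt-nd6, also of complex I, stood at 314.6 to 571.2 CPM in Sham and 576.7 to 671.7 CPM in SNC 3 d, a log2 difference of 0.50 ± 0.16 (SE). Mt-co3 of complex IV stood at 986.4 to 1165 CPM in Sham and 1240 to 1351 CPM in SNC 3 d, and Mt-nd3 of complex I at 222.4 to 457.2 and 502.8 to 554.8 CPM. The count of 4 was 2 without Sham Xin, Sham 10, SNC 15 or SNC 17-3, 1 with the season or the date as a term, and 8 in the depth window.

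Within the later season only, where Sham was the single sample 18, the median of the Mt- members was 0.074 at 3 d and -0.0556 at 1 d. At 1 d over all samples that median was 0.10, and 1 Mt- member was higher at an unadjusted p under 0.05, against 4.55% over all genes. This was Mt-nd4, at 5.746, 20.51, 15.72 and 20.61 CPM in Sham and 28.99, 23.05, 35.50 and 25.23 CPM in SNC 1 d, so that the groups did not overlap. The log2 difference was 0.77 ± 0.30 (SE; adjusted p = 0.534 by edgeR), and the lowest Sham value belonged to Xin, the sample with the fewest UMIs. The count of Mt- members was 0 without Xin, 2 without Sham 4 or SNC 16, 5 without Sham 18 and 8 in the depth window.

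At 7 d the medians were -0.10 for nuclear and -0.0743 for Mt- members. At an unadjusted p under 0.05, 4 of 82 nuclear members were lower (2.04% over all genes) and 0 of 13 Mt- members moved in either direction (1.3% higher over all genes). The 4 were Uqcrq, Uqcr11, Cox8a and Atp5f1e. All lay at 400 CPM or more, where 10.8% of all genes were lower at that p (median -0.17) against 9.76% of the 41 nuclear members (-0.14). Cox8a, a small subunit of complex IV, stood at 796.3 to 947.7 CPM in Sham and 668.8 to 819.3 CPM in SNC 7 d, a log2 difference of -0.26 ± 0.11 (SE; adjusted p = 1.00). Atp5f1e, the epsilon subunit of complex V, differed by -0.24 ± 0.10 and Uqcr11 by -0.24 ± 0.10 on the log2 scale. From 3 d to 7 d, 8 of 13 Mt- members were lower at an unadjusted p under 0.05 (2.59% of all genes), led by Mt-nd5 (-0.45 ± 0.11 on the log2 scale; adjusted p = 0.887 by edgeR). The count of 4 nuclear members at 7 d was 0 without Sham Xin, 2 without SNC S, 1 without SNC 19-2, 7 without Sham 10 or Sham 18, 10 without SNC 16 and 12 without SNC 19-1. It was 0 in the depth window. SNC 3 d samples were all of the later season and 3 of 5 SNC 7 d samples of the earlier.

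**Figure D3:**
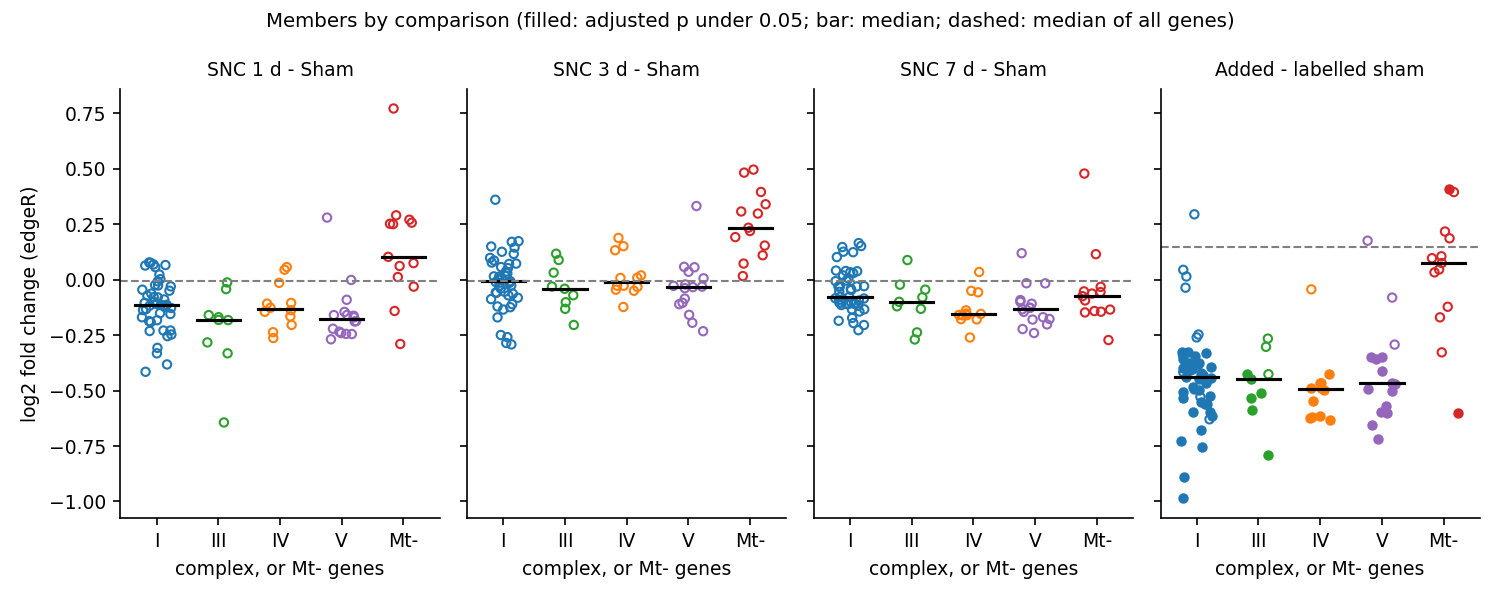
Fitted log2 fold change (edgeR) of each member by complex and for the Mt- genes in SNC 1, 3 and 7 d against Sham and in added against labelled sham; filled points passed an adjusted p of 0.05, bars are medians and the dashed line is the median of all genes. No point is filled in the first 3 panels, and 63 of 82 nuclear members are filled below 0 in the last.

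The same contrasts were made within neuron types. Clusters were named from marker genes, and the peptidergic (PEP1-, PEP2- and PEP3-like) and neurofilament (NF-like) types had enough neurons per sample. The PEP1-like cluster had 7 of 16 listed markers high, Gal but not Tac1 among them, whereas the paper's PEP1 expresses both. Clusters with high glial markers (42 labelled and 136 added neurons) or too few type markers (91 added neurons) stayed unnamed but in the sums over all neurons. The 136 had 9 of 16 PEP1 markers high, and at resolution 0.5 no added cluster was named PEP-like. In PEP-like neurons, 8, 3 and 0 nuclear members were lower at 1, 3 and 7 d at an unadjusted p under 0.05 (4.61%, 2.32% and 2.13% lower over 11671 genes), and none was called, where 1 gene of all was called lower at 3 d (0.00857%). Ndufv3-2 (-0.41 ± 0.12), Atp5f1b (-0.33 ± 0.12) and Uqcrq (-0.32 ± 0.12) had the lowest p among subunits at 1 d on the log2 scale, and Mt-nd4 stood higher (1.11 ± 0.40; 3.25% higher over all genes). At 3 d Mt-nd5 stood higher (0.38 ± 0.17; 2.6% over all genes). In NF-like neurons 1, 0 and 0 nuclear members were lower (1.51%, 1.44% and 1.21% over 13012 genes) and 0 members were higher (2.81%, 1.82% and 1.12%), with a median log2 fold change of -0.13 at 1 d. Whether PEP-like and NF-like neurons differed in these changes was not tested.

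The other genes of mitochondrial energy supply gave no calls after injury. In all labelled neurons, of 4 complex II genes, 27 assembly factors, 14 genes of mitochondrial transcription and biogenesis and 14 of the tricarboxylic acid cycle, 0 passed an unadjusted p of 0.05 at 1, 3 or 7 d. Of these lists, PEP-like neurons had 1 tricarboxylic acid cycle gene higher at 1 d and, at 7 d, 2 assembly factors higher, 1 lower and 1 biogenesis gene lower at that p, and NF-like neurons had 1 biogenesis gene higher at 3 d. In glycolysis, again in all labelled neurons, 3, 0 and 1 of 14 genes were lower at that p, with medians of -0.24, -0.18 and -0.14 on the log2 scale. Cytoplasmic ribosomal protein genes, another abundant group, had 50, 5 and 9 of 94 lower and medians of -0.29, -0.16 and -0.19.

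Neuron types differed in their respiratory chain shares, as a description without a test, since the types were made from the same cells. Each type was set against the other neurons of its own sample. SST-like neurons joined 2 clusters, 1 of 72 cells high in Nppb, Il31ra and Osmr but not in Sst and 1 of 57 cells high in these and in Sst, the somatostatin gene. In the labelled SST-like neurons the Mt- share was lower in 14 of 14 samples, by a median of 0.21 percentage points (1.16% against 1.35%). Every Mt- gene had a median ratio below 1 there. The Mt- share of SST-like neurons remained lower in 10 of 11 samples within the window of 100000 to 400000 UMIs, with a median difference of -0.288 percentage points. The added libraries, where SST-like was 1 cluster high in Sst with 26 neurons in 6 libraries, did not show it over all depths, with the share lower in 3 of 6 and a median difference of -0.00238, whereas in the window it was lower in 4 of 5 (-0.240). Mt-nd4 was the Mt- gene with the widest gap, at 10.0 ± 5.69 CPM in SST-like and 24.1 ± 5.37 CPM in other neurons (SD, n = 14). This gap was not particular to SST-like neurons. Mt-nd4 averaged 9.3 against 23.7 CPM in labelled PEP2-like and 14.9 against 23.1 CPM in PEP1-like neurons. In NF-like neurons it went the other way, at 36.4 against 15.1 CPM.

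In labelled NF-like neurons, large-diameter cells with myelinated axons, the nuclear share was lower than in the other neurons in 13 of 15 samples (median difference -0.198 percentage points) and the Mt- share higher in 12 of 15 (0.0765). These neurons joined a cluster of 91 cells led by Shox2 and a cluster of 83 cells led by S100a16, in which Shox2 was not high. Both clusters were deeper, with median UMIs of 526885 and 441320 per neuron, and the nuclear share fell with depth in each sample. In neurons of 100000 to 400000 UMIs the NF-like nuclear share was instead higher in 8 of 9 samples (median difference 0.432) and the Mt- share higher in 9 of 9 (0.378). In the added libraries NF-like was 1 cluster of 97 cells led by Shox2, so that it is not the same mixture. Its nuclear share was higher over all depths, in 5 of 5 libraries (median difference 0.406), and the Mt- share was higher in 5 of 5 (0.225). The median log2 ratio to other neurons there was 0.247 over the nuclear and 0.255 over the Mt- members. In added c_pLTMR2-like neurons, putative low-threshold C-mechanoreceptors in 4 libraries from a cluster of 17 cells, these medians were 0.0868 and 0.218. In neurons of 100000 to 400000 UMIs, where 1 library was left, they were 0.0402 and -0.0586. Ndufa12 and the complex I assembly factor Ndufaf2 stood 1.98-fold above other neurons in NF-like cells, and Atp5md, a small subunit of complex V, 1.78-fold. These 3 also lay above in 9 of 9 samples in that window. Mt-nd4 stood 2.44-fold above, in 15 of 15 samples.

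The peptidergic types leaned higher in nuclear share. PEP3-like neurons were higher in 10 of 11 samples (median difference 0.273 percentage points), PEP1-like in 15 of 16 (0.123) and PEP2-like in 13 of 16 (0.202). Within the depth window the difference of PEP2-like neurons was -0.152, with 1 of 13 samples higher, and that of PEP1-like neurons 0.0475, whereas PEP3-like neurons remained higher in 6 of 7 samples (0.228). Cold-like neurons, which express the cold channel Trpm8, were higher in 5 of 5 samples (0.417) and in 4 of 4 in the window (0.786), from 22 and 13 neurons. NP-like neurons, nonpeptidergic nociceptors, were lower in 6 of 8 samples, with a difference near 0 (0.00180) in the window. By gene, PEP2-like neurons had more Ndufv3-2 (1.28-fold) and Uqcrq (1.26-fold) and less Ndufa12 (0.512 of the other neurons), and Cold-like neurons had less Ndufaf2 (0.413).

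**Figure D4:**
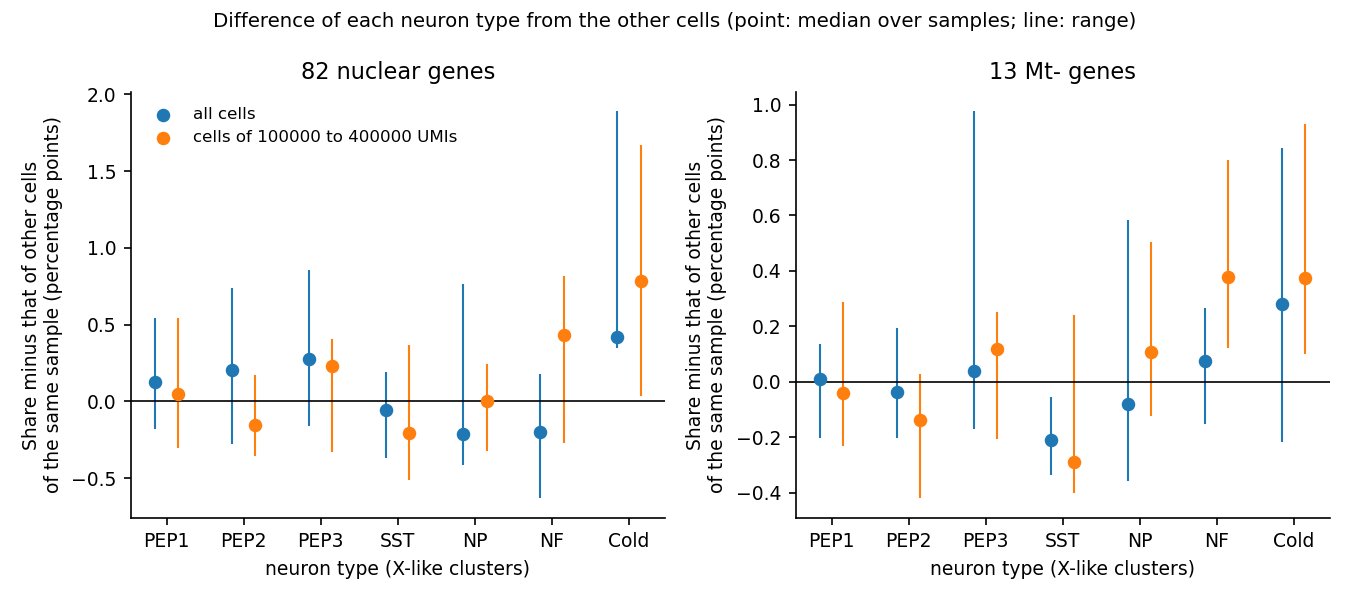
Share of UMIs of each neuron type minus that of the other neurons of the same labelled sample (percentage points) for the nuclear (left) and Mt- genes (right); points are medians over samples, lines the lowest to highest sample, in all neurons (blue) and in neurons of 100000 to 400000 UMIs (orange). The NF-like nuclear difference is -0.198 in all neurons and 0.432 in the depth window, and the SST-like Mt- difference lies below 0 in both.

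Depth moved with both shares over single neurons. Within each of the 23 samples and libraries the rank correlation of the nuclear share with the neuron's UMI total lay between -0.914 and -0.229, and that of the Mt- share between -0.866 and -0.220. The nuclear and Mt- shares rose and fell together over neurons in 22 of 23 (median rho 0.527), and both contain the same UMI total, so that the relation is a description only. In labelled neurons the median Mt- share went from 2.76% under 50000 UMIs to 1.19% at 400000 to 800000 UMIs, and the nuclear share from 3.99% to 3.37%, with a peak of 4.37% at 50000 to 100000 UMIs.

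The added sham libraries had a lower nuclear share than the labelled Sham samples. It was 2.92% ± 0.162 (SD, n = 7), with 3.14%, 2.77% and 2.91% in S1, S2 and S7 (0 d), 3.13% and 2.92% in S3 and S6 (1 d), 2.71% in S4 (3 d) and 2.89% in S5 (7 d). All 7 lay below all 16 labelled samples. The Mt- share was 1.36% ± 0.131 (SD, n = 7), within the labelled range. The added and labelled sham neurons differed in library set and in dye labelling, and no date was given for the added libraries. The earlier operation for dye injection was described for the labelled groups. The mix of named types differed as well. PEP-like neurons made up 47.0% of labelled Sham neurons, and no added cluster was named PEP-like at resolution 0.5. NF-like neurons made up 19.1% of labelled Sham neurons and 51.2% of library S4. In sums over all neurons these differences cannot be told apart.

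By edgeR over 15791 genes, 63 of 82 nuclear members were called lower in the added libraries and 0 higher, where 16.5% of all genes were called lower and 24.2% higher. Of the 13 Mt- members, 1 was called lower and 1 higher, and at an unadjusted p under 0.05 2 were higher (29% of all genes). The median log2 fold change was -0.46 for nuclear and 0.0754 for Mt- members, beside 0.15 over all genes, so that the nuclear median lay -0.61 from that of all genes. Abundant genes as a whole were lower as well. At 400 CPM or more, 38 of 41 nuclear members and 69.2% of all genes were called lower (medians -0.49 and -0.52). At 100 to 400 CPM the figures were 21 of 27 nuclear members and 35.9% of all genes (-0.41 and -0.21), and under 100 CPM 4 of 14 and 11.6% (-0.42 and 0.28). In the depth window 34 nuclear members were called lower, 33 of them shared with the 63, and 1 higher, with a median of -0.31.

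Called members came from every complex. Complex I subunits numbered 32 of 37, complex III 6 of 9, complex IV 10 of 12 and complex V 13 of 16, where 16.5% of all genes were called lower. Of 8 complex I assembly factors, which averaged 25.7 to 112 CPM, 2 were called lower. Under 100 CPM, 4 of 14 nuclear members and 11.6% of all genes were. Ndufv3-2 stood at 538.8 to 671.8 CPM in labelled Sham and 253.5 to 395.7 CPM in the added libraries, a log2 difference of -0.89 ± 0.13 (SE; adjusted p = 0.000205). The second entry, Ndufv3-1, stood at 52.97 to 63.17 and 26.04 to 39.20 CPM (-0.99 ± 0.15, adjusted p = 0.000285). Neither overlapped.

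Ndufa13, an accessory subunit of complex I, stood at 386.8 to 454.7 CPM in labelled Sham and 202.8 to 305.6 CPM in the added libraries (-0.76 ± 0.11). Ndufb9, another accessory subunit, stood at 507.4 to 555.4 and 343.9 to 407.5 CPM (-0.60 ± 0.0884). Uqcrq stood at 691.8 to 896.4 and 413.4 to 547.5 CPM (-0.79 ± 0.12), Cox4i1 at 960.3 to 1075 and 675.6 to 802.6 CPM (-0.63 ± 0.0953), and Atp5if1 at 1075 to 1259 and 617.7 to 894.3 CPM (-0.72 ± 0.13). In 40 of 82 nuclear members every added library lay below every labelled Sham sample (7.72% of all genes), and in 14 below every labelled sample (4.45%).

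Not all members went this way. Ndufs1, the large iron-sulfur subunit of complex I, stood at 112.4 to 151.2 CPM in labelled Sham and 123.7 to 177.9 CPM in the added libraries (0.0446 ± 0.11 on the log2 scale). Atp5mc3, a gene for the c-ring subunit of complex V, differed by 0.18 ± 0.13 and Atp5mc1, which encodes the same mature subunit, by -0.57 ± 0.0972 (adjusted p = 0.000696). Mt-co3 was called higher at 1207 to 1884 against 986.4 to 1165 CPM (0.41). No Mt- member was called higher with DESeq2, with its size factors or without Sham Xin, 4 or 10 or library S1, Mt-co3 was not called without Sham 18, and in the depth window 4 Mt- members were called higher and 0 lower. Over all depths, Mt-nd4l was called lower at 212.4 to 375.2 against 385.1 to 459.5 CPM (-0.60 ± 0.13, adjusted p = 0.00268).

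The lower nuclear share of the added libraries was also seen within depth bins and within types of the same name, as a description. At 200000 to 400000 UMIs the median share of a neuron was 3.18% in 147 added and 3.92% in 72 labelled sham neurons, and at 50000 to 100000 UMIs 3.63% and 4.40%. NP-like neurons stood at 2.77% ± 0.314 (n = 7) in added and 3.53% ± 0.126 (n = 3) in labelled sham samples, SST-like at 3.05% ± 0.362 (n = 6) and 3.76% ± 0.123 (n = 3), and NF-like, where the ranges overlapped, at 3.29% ± 0.318 (n = 5) and 3.61% ± 0.167 (n = 3; all SD). Types of the same name were not matched between the sets. Mrgprb4 led the labelled NP-like cluster but was not high in the added NP-like clusters. It was among the leading genes of the 91 unnamed added neurons. Labelled NF-like neurons included a cluster led by S100a16, whereas the added NF-like cluster was led by Shox2. Added neurons were deeper in each type, with median UMIs of 310000, 295000 and 508000 (NP-, SST- and NF-like) against 204000, 224000 and 291000. Of the other lists, 72 of 94 ribosomal protein genes and 9 of 16 glycolysis genes were called lower, and 5 of 14 genes of mitochondrial transcription and biogenesis were called higher and 0 lower. All 7 tested genes of an injury list were called lower, with a median log2 fold change of -2.06.

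**Figure D5:**
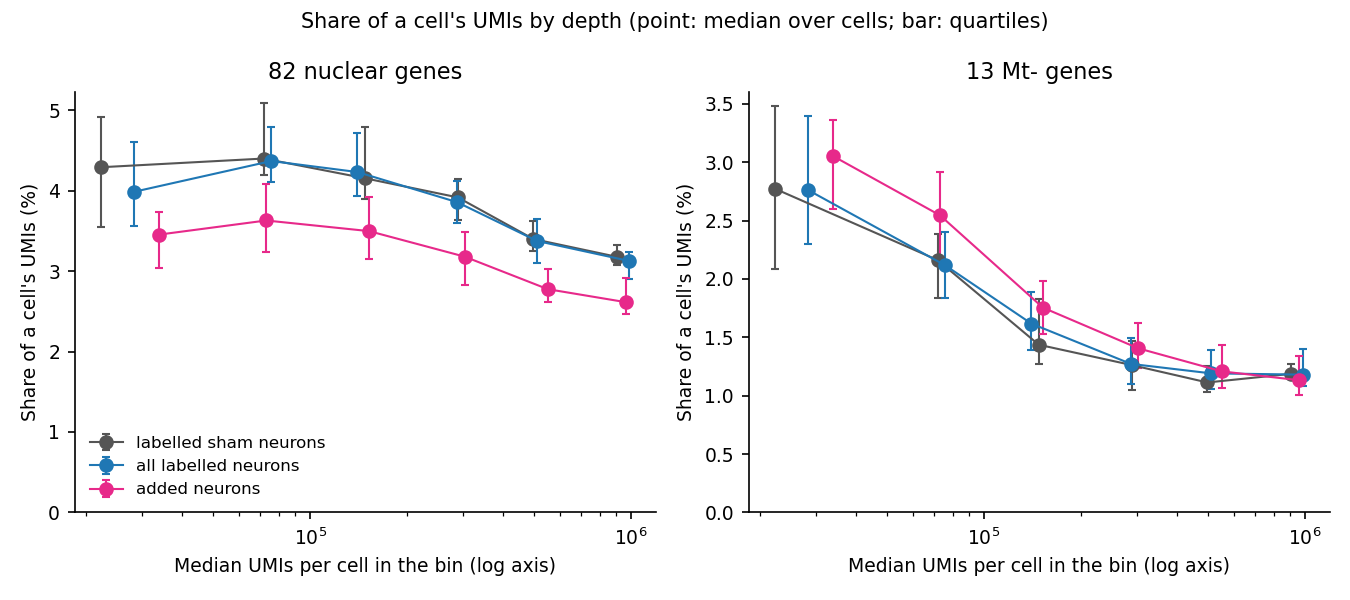
Share of a neuron's UMIs (%) in the nuclear (left) and Mt- genes (right) by depth, 6 bins of UMIs per neuron plotted at their median (log axis), for labelled sham, all labelled and added neurons; points are medians over neurons and bars quartiles. At 200000 to 400000 UMIs the nuclear median is 3.18% in added and 3.92% in labelled sham neurons, and the Mt- medians are 1.41% and 1.26%.

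Time after sham surgery was examined within the added libraries, 1 to 7 d (4 libraries) against 0 d (3). By edgeR no gene of 16175 was called in either direction (percent called 0), with 695 lower and 808 higher at an unadjusted p under 0.05, whereas DESeq2 called 195 genes, 0 of them members. At that p, 1 nuclear member, the assembly factor Ndufaf3 (-0.32 ± 0.13), and 1 Mt- member, Mt-nd4 (-1.10 ± 0.42), were lower, against 4.3% of all genes. Mt-nd4 stood at 32.06, 22.25 and 23.60 CPM at 0 d and 4.669 to 17.12 CPM later, without overlap. Without library S7 (0 d) edgeR called 1992 genes, of which 1 was a member, Uqcrc2 (1.84 ± 0.44, adjusted p = 0.0282), a core subunit of complex III.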

How the data were processed

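The authors deposited UMI counts per gene and neuron; per their methods and processing notes, reads were split by cell barcode, aligned to Rnor_6.0 with STAR, and counted with featureCounts, SAMtools and UMI-tools, tool versions not being given in the notes. Libraries were made by a modified Smart-seq2 protocol that captures 3′ ends. From these deposited counts, neurons with at least 500 genes, 1000 UMIs and an Mt- share under 5% were kept, CPM was taken over all UMIs, and counts were summed per DRG sample (libraries S-2 and S-3 are 1 sample). Intervals and errors cover the spread between samples. No doublets were called, since neurons were picked by hand.

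Tests used edgeR 4.0.16 (quasi-likelihood, TMM, filterByExpr) in R 4.3.3 with Benjamini-Hochberg adjustment over all genes tested, called at 0.05; DESeq2 1.42.0 was an alternative. Fold changes are edgeR's, with a prior count of 0.125. Clusters came from Seurat 5.3.0 (2000 variable genes, 40 components, resolution 0.5), labelled and added neurons apart; 4 and 1 members were among the variable genes. Ratios between types used a pseudocount of 1 CPM. Scripts were tested on simulated data. Members, gene lists and comparisons were chosen with earlier results of these data known. Named genes were all Mt- members, the 3 highest per complex, isoform groups, up to 4 with the lowest p at either end of a contrast, up to 3 per neuron type and those nearest the 5 CPM limit; Ndufs1 and Atp5me were singled out after their values were seen. Motifs were searched in RefSeq promoters of GRCr8, not the build of the counts. Alternatives were another test, normalization, filters, depth, season, date and each sample left out.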

Additional observations from a re-analysis of the deposited data

Results flagged for a closer look

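In 196 groups of 4 to 7 samples, over 49 measures, 11 samples stood apart from the rest of their group by Dixon's criterion; chance alone gives about 1 in 20. In SNC 7 d, sample 19-1 had a nuclear share of 4.021% (others 3.375% to 3.534%) and a complex III share of 0.4375% (others 0.3682% to 0.3771%). The dye mix of 19-1 was uneven and opposite to that of 19-2, and its part in these values was not tested. In SNC 1 d, sample 16 was high in Mt-co2 (2325 CPM, others 2106 to 2120), Ndufa4 (891 CPM, others 733.6 to 737.7), Uqcr11 (643.8 CPM, others 556.4 to 569.8) and Cox6b1-1 (414.5 CPM, others 353.2 to 362.6). Sample 13 of that group was low in Ndufv3-1 (47.77 CPM, others 54.85 to 55.72). In Sham, Xin was high in Ndufb2 (747.3 CPM, others 602.3 to 625.8). In the added libraries, S4 was low in Mt-nd4l (212.4 CPM, others 308.5 to 375.2) and Ndufv3-2 (253.5 CPM, others 355.9 to 395.7), and S1 was high in Cox4i1 (802.6 CPM, others 675.6 to 724.3).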

How the results depend on the processing

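In the injury comparisons 0 members were called by edgeR or DESeq2 under any alternative run. Counts of all genes called at 1 d rose from 0 to 17 with DESeq2 and to 1 with the season as a term, with the date as a term or in the later season only. At 3 d they were 1 with DESeq2, without the filter on low counts, after thinning and with the season as a term, and 3 with the date as a term, and at 7 d 1 in the later season only. Leaving out each sample in turn gave 0 to 1 at 1 d and at 3 d. The nuclear median log2 fold change at 1 d was 0.0361 in the window of 100000 to 400000 UMIs, -0.322 with the date as a term and -0.222 to -0.0995 with 1 sample left out; at 7 d it was -0.0109 in the later season. The Mt- median at 1 d was 0.313 in the window and -0.0556 in the later season, at 3 d 0.074 in the later season, and at 7 d -0.233 after thinning. Uqcrq at 1 d turned to 0.0293 in the window and Mt-nd3 at 3 d to -0.00982 with the date as a term. The window and the single seasons were chosen after seeing the data, and the fit with the date as a term held 9 samples.

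Within types, DESeq2 called 27, 7 and 0 genes in PEP-like and 1, 1 and 4 in NF-like neurons at 1, 3 and 7 d, and without the filter 12 and 2 (PEP-like) and 1 and 1 (NF-like) at 1 and 3 d; counts ran from 0 to 1 with a sample left out. The PEP-like Mt- median at 3 d then ran from 0.0712 to 0.319 and the NF-like nuclear median at 1 d from -0.266 to -0.0695. For added against labelled sham, the window gave 39 members called, a nuclear median of -0.31 and an Mt- median of 0.326. With a sample left out these medians ran from -0.547 to -0.448 and from -0.113 (without Xin) to 0.18. In the added libraries over time, DESeq2 called 195 genes, and edgeR 0 to 1992 (without S7) genes and 0 to 1 members with a library left out. The Mt- median there was -0.252 in the window and -0.135 (without S7) to 0.0979 with a library left out, and the nuclear median -0.169 in the window. Differences in summed share in the window were 0.0868 points (nuclear, SNC 1 d minus Sham), -0.61 (nuclear, added minus labelled sham) and 0.363 (Mt-, added minus labelled sham), and the Mt- difference at 7 d was -0.196 as a mean over cells. By type, the window gave 0.432 (NF-like, nuclear), 0.378 (NF-like, Mt-), -0.152 (PEP2-like, nuclear) and -0.209 (SST-like, nuclear), and a minimum of 5 cells gave 1.27 (Cold-like, nuclear). Results by type kept their direction at resolution 0.8 and with members left out of the variable genes, as did the injury comparisons in all labelled neurons with Mt- genes left out of library sizes and, together with the sham comparisons and summed shares, with no limit on the Mt- share. The causes were not tested. The precision of the injury comparisons was set by 3 to 5 samples a group, with standard errors of a member's log2 fold change from 0.0800 to 0.387 (Uqcrc2 at 3 d). The groups share no replicate numbers, and the fit with the date as a term used the dates of reverse transcription that samples of different groups shared.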
